A study of Mus musculus with 4 samples.

Results

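The genes described here are 10 cytokines and growth factors of the senescence secretome, the set of proteins that arrested, damaged cells release: Il6, Lif, Il1a, Il1b, Tnf, Gdf15, Csf1, Ereg, Areg and Hgf. The rule that picks them out uses gene symbols alone and no measured value, and all 10 were found among the 55487 genes of the deposited tables. RNA sequencing measured them in primary cultured mouse astrocytes labelled OASIS wild type or OASIS deficient. Creb3l1 encodes OASIS, which sits in the endoplasmic reticulum membrane and becomes an active transcription factor once proteases release its outer part. Cultures of each genotype label were untreated or were exposed for 1 h to doxorubicin at 1 µg/ml, a topoisomerase II poison that breaks DNA, and collected 24 h later. The 4 groups hold 1 library each, and the labels do not give the deleted allele or how many animals a culture came from. The question of the series is what OASIS contributes to the transcriptome of astrocytes after DNA damage.

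These proteins act between cells. IL-6 and LIF signal through receptors that share the gp130 chain and activate STAT3; IL-1 and TNF activate NF-kB; amphiregulin and epiregulin are membrane-anchored ligands of the EGF receptor family that are released by cleavage. CSF1 keeps microglia alive, HGF acts on the receptor tyrosine kinase MET, and GDF15 is a stress hormone of the TGF-beta superfamily whose gene is a known target of p53. In the brain, microglia are a main source of IL-1 and TNF, and reactive astrocytes and microglia both release cytokines of this set.

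Total counts ran from 17481188 to 22559613 per library, and levels are given as scaled counts relative to the library total (CPM). The markers of the labelled cell type were present, led by Gfap, Slc1a3 and Aqp4 (Gjb6 alone was at 0, in wild type untreated), with summed levels of the 12 astrocyte markers of 4004 to 4110 CPM in the libraries labelled wild type and 10121 to 11460 CPM in those labelled deficient. Gfap alone stood at 1140 and 1120 CPM in wild type and at 6589 and 5168 CPM in deficient. The median log2 ratio of the 12 markers, deficient over wild type, was 0.71 without treatment and 0.73 with doxorubicin. Creb3l1 was reduced in the libraries labelled deficient, to 31.1% of wild type in the untreated pair (95% exact binomial interval 27.1 to 35.7%) and to 42.8% in the doxorubicin pair (36.7 to 49.8%). Which exons these remaining counts come from cannot be read from a table of whole genes. The treatment label moved together with sex. Xist had 2547 and 2742 counts in the libraries labelled doxorubicin against 1 and 0 in those labelled untreated. Conversely, 4 genes of the Y chromosome (Uty, Kdm5d, Eif2s3y, Ddx3y) lay at 353 to 1567 counts where the label was untreated and at 0 where it was doxorubicin, so treatment and sex of the culture cannot be told apart. Of 29 known p53 targets measured, none was 2-fold different between doxorubicin and untreated in either genotype label (median log2 ratios 0.07 and 0.17). Among all genes averaging 1 CPM or more, 4.08% were 2-fold higher and 5.45% lower in wild type, and 1.58% and 1.93% in deficient. By contrast, 19 targets were at least 2-fold lower in deficient than in wild type without treatment and 18 with doxorubicin. Those are 65.5% and 62.1% of the list, against 10.2% and 9.55% of all these genes. Whether labels were exchanged between libraries cannot be told from these tables. Each genotype or doxorubicin ratio below therefore compares libraries by their labels and, if labels were exchanged, would not be a ratio between those conditions.

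Csf1 and Gdf15 made up most of the RNA of the set. On the deposited TPM scale, which divides by transcript length and so allows levels of different genes to be compared, Csf1 averaged 145 TPM and Gdf15 44.7 TPM over the 4 libraries. Hgf followed at a mean level of 3.60 TPM, Lif at 3.36 TPM, Areg at 1.78 TPM and Tnf at 1.66 TPM. Ereg, Il6, Il1b and Il1a averaged 0.0917 to 0.906 TPM. The 10 genes summed to 278 and 303 TPM in the libraries labelled wild type, untreated and doxorubicin, and to 114 TPM in each library labelled deficient. Csf1 alone gave 61.2 to 72.1% of that sum in wild type and 83.4 to 86.0% in deficient, while the share of Gdf15 was 22.3 to 33.2% in wild type and 6.26 to 7.94% in deficient. Which cells of the culture made each RNA was not measured, and in bulk samples fewer cells of a type and less RNA per cell cannot be told apart.

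**Figure D1:**
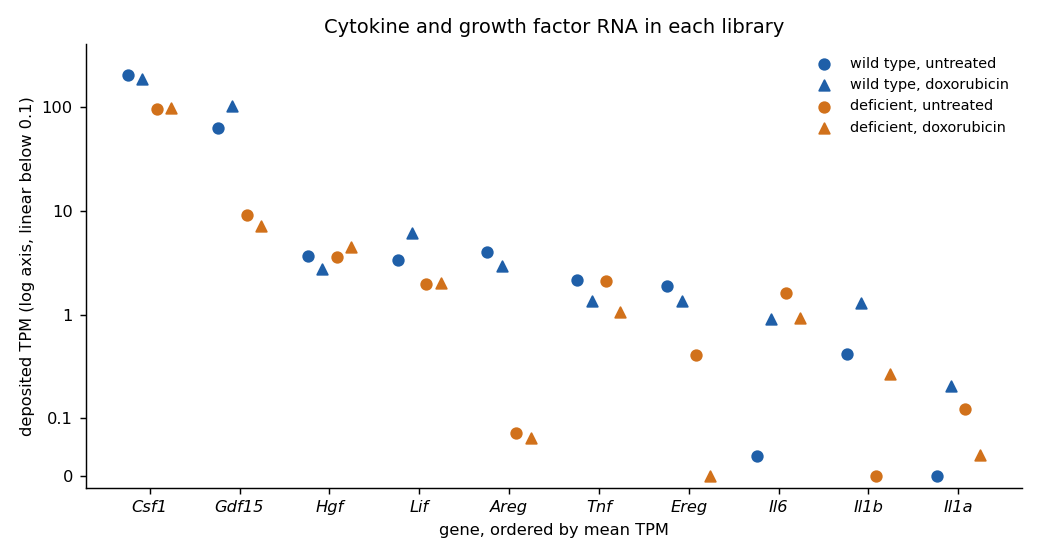
Deposited TPM of the 10 genes (vertical log axis, linear below 0.1) in each of the 4 libraries, with genes ordered by mean TPM; each point is 1 library and there are no replicates. Csf1 and Gdf15 lie above the other genes in every library. The points of Gdf15, Areg, Ereg, Csf1, Lif and Il1b lie higher in both libraries labelled wild type, and those of Il6 in both labelled deficient. Il1b and Il6 rest on few counts.

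The comparisons across all genes took in the 15596 genes that averaged 1 CPM or more. Of the 10 members, 7 passed and Il6, Il1a and Il1b did not. A log2 ratio is that of CPM with 1 CPM added, which understates the change of low genes, and "higher by size" and "lower by size" stand for a ratio of at least 1 or at most -1. With 1 library a group these ratios carry no replicate check and no p-value. The intervals given with count ratios are 95% exact binomial intervals and cover counting error only. A test was possible only in an additive model of genotype and treatment label over all 4 libraries (edgeR's quasi-likelihood test, Benjamini-Hochberg adjusted over all genes tested), which leaves 1 residual degree of freedom. That degree of freedom is the difference of the doxorubicin responses between genotype labels, moderated with the spread of all genes. Both treatment labels of a genotype thus stand in for replicates. The p-values of the model measure the spread among these libraries, which may be technical. In simulated counts the genotype test called 8 of 100 genes changed 2-fold, so a gene that did not pass can still differ 2-fold.

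Between genotype labels, Gdf15, Ereg and Areg were at least 2-fold lower in deficient than in wild type, both without treatment and with doxorubicin, and no member was at least 2-fold higher in either comparison. These 3 are 42.9% of the members that passed the minimum, and over all genes tested 10.2% were lower by size without treatment and 9.55% with doxorubicin. No member was higher, against 9.79% and 10.7% of all genes. The median log2 ratio of the 7 was -0.70 without treatment and -0.99 with doxorubicin, where all genes had medians of -0.03 and 0.02. Areg and Ereg passed the minimum through the libraries labelled wild type alone (means of 2.45 and 4.22 CPM there, 0.0543 and 0.610 CPM in deficient), so they had to differ and these counts and medians support nothing about the set. In the additive test of genotype, Gdf15, Csf1 and Areg were lower at an adjusted p of at most 0.05, 3 of 7 members, a count to which the same limit applies since Areg is in it. It stands beside 10.6% of all genes lower and 12.6% higher.

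**Figure D2:**
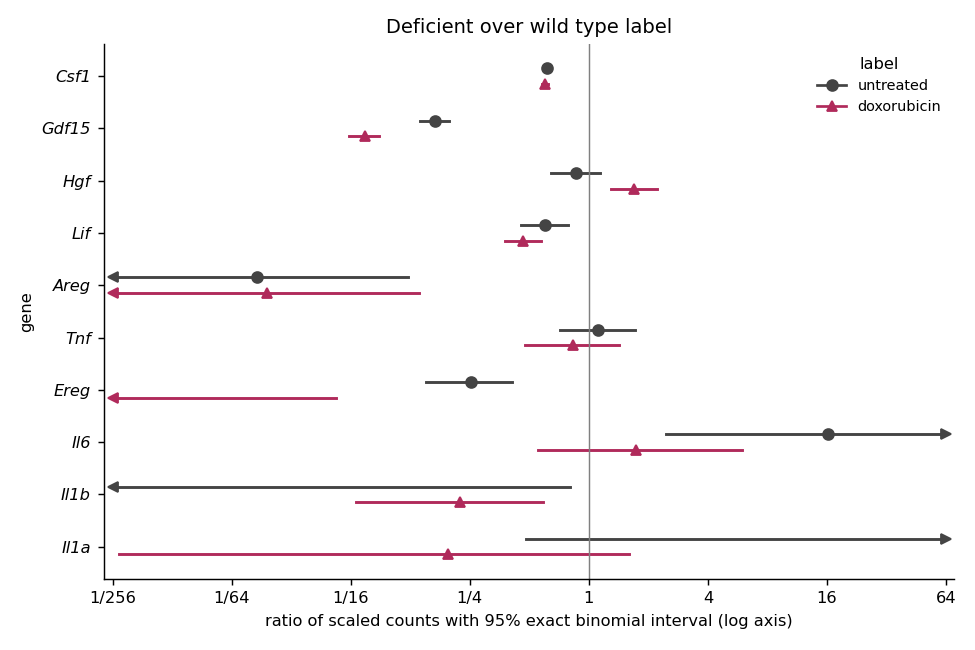
Ratio of scaled counts, deficient over wild type label (horizontal log axis), for each of the 10 genes without treatment and with doxorubicin; symbols are the ratio of 2 single libraries and bars the 95% exact binomial interval, arrowheads mark intervals that run past the axis, and a bar without a symbol has 0 counts in 1 library. Gdf15, Lif, Csf1, Areg, Ereg and Il1b lie left of 1 in both comparisons, while Tnf and Hgf change sides.

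Gdf15 (ENSMUSG00000038508.7, GRCm38 chromosome 8, 70629393 to 70632456, minus strand) had the widest separation among the abundant members. In wild type it had 1091 counts untreated and 2193 with doxorubicin (54.8 and 95.8 CPM), and in deficient 157 and 139 (9.12 and 7.03 CPM). Both libraries labelled deficient lay far below both labelled wild type. Gdf15 in deficient stood at 16.7% of wild type in the untreated pair (14.0 to 19.7%) and at 7.34% in the doxorubicin pair (6.14 to 8.71%), log2 ratios of -2.46 and -3.59. The additive model gave a log2 difference of -3.18 (SE 0.286, adjusted p 7.86e-07 by edgeR). Among 11504 other protein-coding genes with a mean of at least 5 CPM, Hmcn2 and Plk2 had profiles over the 4 libraries among the closest to that of Gdf15, at Euclidean distances of 0.148 and 0.342 on the centred log2 scale. Plk2, a polo-like kinase gene, is also on the list of p53 targets, and its levels were 298, 380, 47.8 and 40.2 CPM in the same order. With 4 libraries such a likeness is a description and says little about any single gene.

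Csf1 (ENSMUSG00000014599.10, chromosome 3, 107741048 to 107760469, minus strand), the growth factor of microglia and macrophages, differed less but with the most counts behind it. It had 9080 and 10913 counts in the libraries labelled wild type, untreated and doxorubicin, and 4825 and 5651 in those labelled deficient, or 456, 477, 280 and 286 CPM. The 2 genotype labels did not overlap, and within each the 2 libraries lay close together. Csf1 in deficient stood at 61.5% of wild type in the untreated pair (59.4 to 63.7%) and at 59.9% in the doxorubicin pair (58.0 to 61.9%), and the additive log2 difference was -0.72 (SE 0.106, adjusted p 1.25e-04 by edgeR). On the deposited TPM, where the median log2 ratio of all genes in the untreated comparison shifted from -0.03 to -0.20, Csf1 stood at -1.07 in that comparison, past the 2-fold limit that its ratio of -0.70 on CPM did not reach. The nearest profiles were those of the glycolytic enzyme gene Eno2, the semaphorin receptor gene Nrp2 and Dcaf1, at distances of 0.0232, 0.0246 and 0.0519.

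Areg and Ereg encode ligands of the EGF receptor family and are neighbours on the plus strand of chromosome 5, Ereg (ENSMUSG00000029377.5) at 91074622 to 91093646 and Areg (ENSMUSG00000029378.5) at 91139599 to 91148432. Areg had 55 and 49 counts in the libraries labelled wild type, untreated and doxorubicin, and 1 count in each labelled deficient, or 2.76, 2.14, 0.0581 and 0.0506 CPM. Ereg had 96 and 83 counts in wild type and 21 and 0 in deficient, or 4.82, 3.62, 1.22 and 0 CPM. Both genes were low, and both were detected well above single counts only where the label was wild type, apart from Ereg in deficient untreated. Areg in wild type was 47.5-fold the deficient level without treatment (8.18 to 1911) and 42.3-fold with doxorubicin (7.25 to 1706). For Ereg, deficient stood at 25.3% of wild type without treatment (15.0 to 40.9%). With doxorubicin it was at least 23.9-fold lower, with 3 counts taken as the limit that a count of 0 allows. The additive model gave adjusted p of 0.0135 for Areg and 0.0519 for Ereg by edgeR, which are not read as support here, since both genes entered the model through their wild-type levels. The exons of Ereg overlap an antisense gene, Gm19610, and the library kit does not mark strand, so reads of the pair cannot be told apart.

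The promoters of Gdf15 and Csf1 are shown because these members have the most RNA and were lower in deficient, and that of Areg because it alone among the 9 members with a RefSeq window held the full cyclic AMP response element. Each run is the 250 bases before the RefSeq start site on GRCm38.p6, 5′ to 3′ on the strand of the gene: chr8:70632457-70632706 (minus) for Gdf15, chr3:107760470-107760719 (minus) for Csf1 and chr5:91139349-91139598 (plus) for Areg. Capitals mark matches, on either strand, to the AP-1 motif TGANTCA, the cyclic AMP response element TGACGTCA, its short form TGACG (which lies within it), the NF-kB decamer or the p53 decamer.
Gdf15: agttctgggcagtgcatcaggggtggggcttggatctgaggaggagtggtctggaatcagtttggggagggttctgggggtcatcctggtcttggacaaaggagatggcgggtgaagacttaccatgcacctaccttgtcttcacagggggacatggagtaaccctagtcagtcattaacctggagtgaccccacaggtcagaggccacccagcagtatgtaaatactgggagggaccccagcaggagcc
Csf1: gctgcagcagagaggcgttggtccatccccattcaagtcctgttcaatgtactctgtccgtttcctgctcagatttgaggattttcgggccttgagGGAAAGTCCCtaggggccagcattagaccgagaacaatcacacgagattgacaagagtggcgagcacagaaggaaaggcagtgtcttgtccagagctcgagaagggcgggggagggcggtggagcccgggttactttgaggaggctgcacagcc
Areg: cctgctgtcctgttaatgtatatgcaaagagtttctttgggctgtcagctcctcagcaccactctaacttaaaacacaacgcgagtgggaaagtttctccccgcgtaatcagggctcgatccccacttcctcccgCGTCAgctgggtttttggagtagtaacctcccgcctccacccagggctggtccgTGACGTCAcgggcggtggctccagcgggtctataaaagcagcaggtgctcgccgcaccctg

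The Areg window held the full cyclic AMP response element once, 61 to 54 bases before the start site, and 1 further match to its short form at 115 to 111 bases. The Csf1 window held 1 NF-kB match at 154 to 145 bases, and the Gdf15 window held none of these letters. Of all 32851 RefSeq windows of this length, 1.55% held the full response element, 17.8% its short form, 0.356% the NF-kB motif, 6.75% the AP-1 motif and 7.13% the p53 decamer. Of the 10 members, 9 matched a RefSeq window. Il6 held 1 match each to the AP-1 motif, the short form, the NF-kB motif and the p53 decamer, and Lif and Il1a held 1 AP-1 match each. A match is a description of the letters and does not show binding.

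Lif (ENSMUSG00000034394.14, chromosome 11, 4257557 to 4272514, plus strand), an IL-6 family cytokine, was lower in deficient under both treatment labels without passing the test. In wild type it had 157 counts untreated and 311 with doxorubicin (7.88 and 13.6 CPM), and in deficient 81 and 125 (4.71 and 6.32 CPM). The wild-type libraries were the higher ones, but wild type untreated and deficient with doxorubicin were within counting error of each other (ratio 1.25, 0.980 to 1.59). The log2 ratios, deficient over wild type, were -0.64 without treatment and -0.99 with doxorubicin, the latter just inside the 2-fold limit, and the additive model gave -0.93 (SE 0.462, adjusted p 0.171 by edgeR). Profiles closest to that of Lif were those of Pcdhgb7, Plekha4 and Rab40c, at distances of 0.0852, 0.0873 and 0.112.

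Hgf (ENSMUSG00000028864.7, chromosome 5, 16553495 to 16620152, plus strand), the ligand of MET, had no common direction with the genotype label. In wild type it had 116 counts untreated and 98 with doxorubicin (5.82 and 4.28 CPM), and in deficient 86 and 143 (5.00 and 7.23 CPM). All neighbours in the order of these levels were within counting error. Deficient over wild type, the count ratio was 0.858 without treatment (0.641 to 1.14) and 1.69 with doxorubicin (1.30 to 2.21), and the additive difference was 0.27 (SE 0.571, adjusted p 0.792 by edgeR). Fibroblast and meningeal markers, from cells known to make HGF, summed to 444, 273, 419 and 395 CPM in the same order of libraries, with Slc22a6 at 0 in all 4 and Lum and Dpt at 0 in both labelled wild type; their part in the values of Hgf was not tested. Exons of Hgf overlap those of Gm43489 on the same strand, which could split its reads.

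Tnf (ENSMUSG00000024401.14, chromosome 17, 35199381 to 35202007, minus strand) had 46 and 35 counts in wild type, untreated and doxorubicin, and 44 and 25 in deficient, or 2.31, 1.53, 2.56 and 1.26 CPM. Its level was near the same in both genotype labels. Deficient over wild type, the count ratio was 1.11 without treatment (0.715 to 1.71) and 0.827 with doxorubicin (0.474 to 1.42), and the additive difference was -0.06 (SE 0.990, adjusted p 0.975 by edgeR). An SE of this size does not exclude a 2-fold difference in either direction.

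The interleukins Il6, Il1a and Il1b were at the edge of detection and did not enter the test. Il6 (ENSMUSG00000025746.11, chromosome 5, 30013114 to 30019981, plus strand) had 1 and 6 counts in wild type, untreated and doxorubicin, and 14 and 9 in deficient. The order was the opposite of that of Gdf15 and Areg, with deficient above wild type, but beyond counting error only without treatment (ratio 16.2, 2.46 to 685) and not with doxorubicin (1.74, 0.552 to 5.93). Il1b (ENSMUSG00000027398.13, chromosome 2, 129364570 to 129371139, minus strand) had 7 and 26 counts in wild type and 0 and 5 in deficient. It was lower in deficient under both labels, at 22.3% of wild type with doxorubicin (6.68 to 58.9%). Il1a (ENSMUSG00000027399.1, chromosome 2, 129299610 to 129309972, minus strand) had 0 and 6 counts in wild type and 3 and 1 in deficient, which neither comparison of genotype separated beyond counting error. The floor of detection, 3 counts, corresponds to 0.131 to 0.174 CPM. Exons of Il1a and Il1b overlap the opposite-strand genes Gm14023 and Il1bos, from which their reads cannot be told apart.

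**Figure D3:**
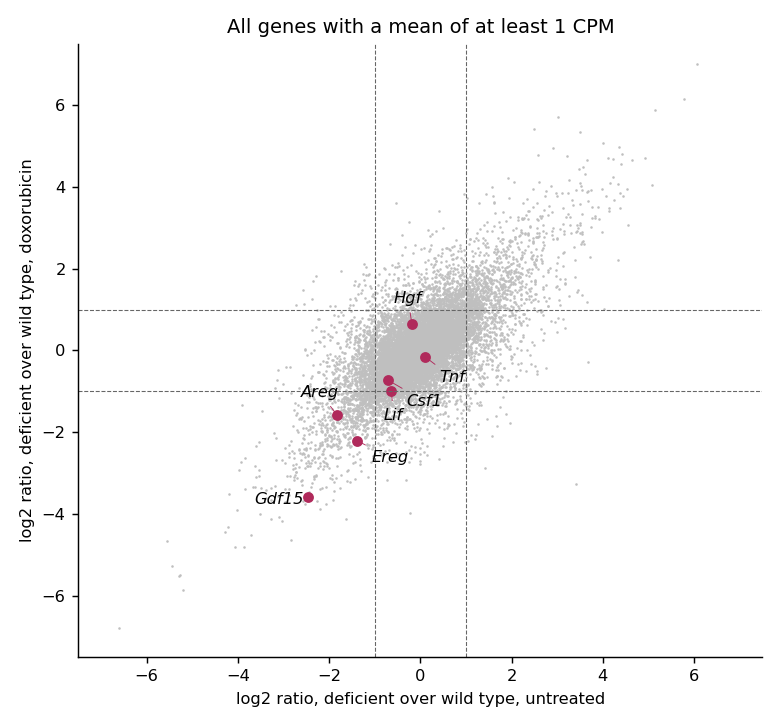
Log2 ratios of CPM + 1, deficient over wild type, without treatment (horizontal) and with doxorubicin (vertical) for all 15596 genes with a mean of at least 1 CPM (grey, 1 point a gene) and the 7 members among them (red, named); dashed lines mark 2-fold. Gdf15, Areg and Ereg lie past 2-fold on both axes, Csf1 and Lif inside it, and Tnf and Hgf near 0 on the horizontal axis.

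Doxorubicin compared with untreated moved only Ereg past 2-fold, in deficient, where the genotype labels moved Gdf15, Areg and Ereg. Areg and Ereg had to differ between genotype labels, so these counts are not weighed against each other. For Tnf the doxorubicin ratios were the larger ones (-0.39 and -0.65 on the log2 scale, against 0.10 and -0.16 by genotype label). In wild type, no member was higher or lower by size (all genes 4.08% higher and 5.45% lower), and the 7 ratios had a median of -0.26, with all genes at -0.00. In deficient, 0 of 7 were higher and 1 of 7, Ereg, was lower (all genes 1.58% higher and 1.93% lower), with a median of -0.01 where all genes had 0.03. The additive test of doxorubicin called 0 of 7 members (edgeR's quasi-likelihood test; 0.0192% of all genes were called higher and 0.141% lower). Before adjustment, the number of members with p under 0.05 was also 0 with edgeR and with DESeq2, and it was 1, Gdf15, with limma-voom, with 0 members called after adjustment by any of the 3 tools.

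Among the 7 members that passed the minimum, Gdf15 and Lif had the highest doxorubicin ratios in wild type. Gdf15 was 1.75-fold the untreated level in wild type (1.63 to 1.88) and 0.771 of it in deficient (0.609 to 0.974), so that its libraries moved in opposite directions. Lif was 1.72-fold in wild type (1.42 to 2.10) and 1.34-fold in deficient (1.01 to 1.80). Their additive doxorubicin differences were 0.28 for Gdf15 (adjusted p 0.982 by edgeR) and 0.61 for Lif (adjusted p 0.956 by edgeR). Csf1 was at 1.05-fold in wild type (1.02 to 1.08) and 1.02-fold in deficient (0.981 to 1.06), the narrowest intervals of the set. On the deposited TPM the ratio of Csf1 in wild type turned to -0.11 on the log2 scale, from 0.06. Lif on that scale was near level in deficient, at 1.96 TPM untreated and 2.00 TPM with doxorubicin. In wild type it stood at 3.32 and 6.14 TPM.

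Ereg was the member that was lower by size with doxorubicin in deficient, with 21 counts untreated and 0 with doxorubicin, which is at least 8.04-fold lower. In wild type its ratio was 0.752 (0.554 to 1.02), and the additive difference was -2.15 (SE 1.30, adjusted p 0.931 by edgeR). Areg was at 0.775 of the untreated level in wild type (0.516 to 1.16). Its single counts in deficient cannot show a difference. Hgf was lower in wild type (0.735, 0.556 to 0.970) and higher in deficient (145% of untreated, 110 to 191%).

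Il1b with doxorubicin stood at 3.23 times the untreated level in wild type (1.37 to 8.82), on 7 and 26 counts, and its 0 and 5 counts in deficient did not differ beyond counting error. Tnf was lower with doxorubicin in both genotype labels, at 0.662 of the untreated level in wild type (0.414 to 1.05) and 0.494 in deficient (0.290 to 0.826). The markers of microglia, C1qb and C1qc among them, were also lower. Of their log2 ratios, 15 of 16 lay below 0 in wild type and 16 of 16 in deficient, against 7849 and 7126 of all 15596 genes. Their summed level was 1713 and 1244 CPM in wild type and 1596 and 1076 CPM in deficient, untreated and doxorubicin, with no marker at 0. The part of microglia in the values of Tnf and Il1b was not tested. Il6 and Il1a had at most 14 counts in any library, and their doxorubicin ratios had intervals that included 1, except for Il1a in wild type, where 6 counts against 0 gave a lower bound of 1.02.

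**Figure D4:**
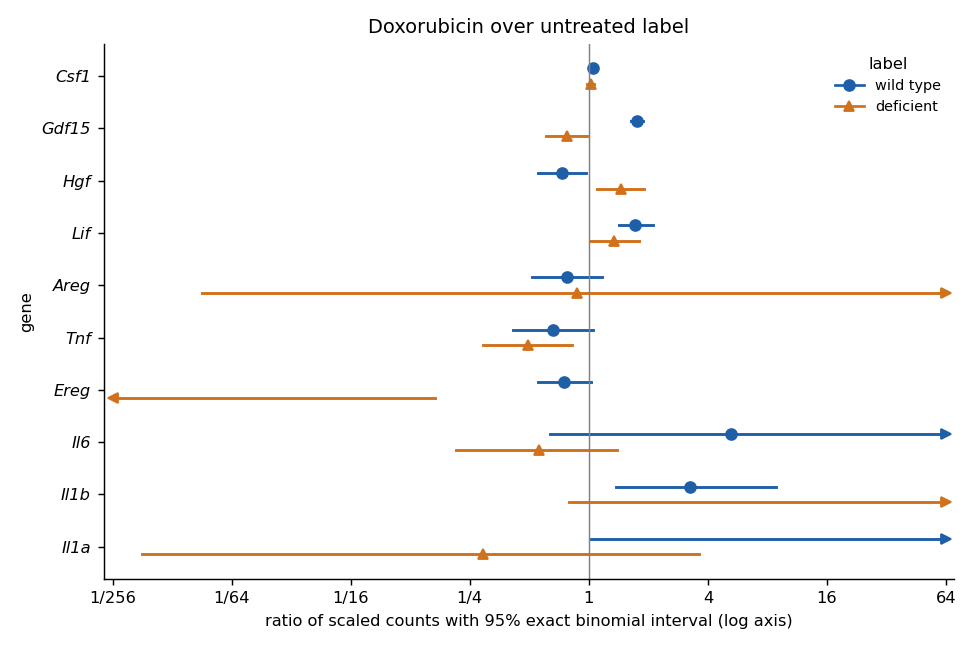
Ratio of scaled counts, doxorubicin over untreated label (horizontal log axis), for each of the 10 genes in the libraries labelled wild type and deficient, with symbols, bars and arrowheads as in the plot of genotype ratios. Gdf15 and Hgf lie on opposite sides of 1 in the 2 genotype labels with neither bar crossing 1, and Csf1 sits next to 1 in both.

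The difference of both doxorubicin ratios, deficient minus wild type, addresses whether the response depended on the genotype label, and it has no test with 1 library a group. It was at most -1 for 1 of 7 members, Gdf15 at -1.13, and at least 1 for none, where 6.05% and 7.66% of all genes were. Ereg stood at -0.82, Lif at -0.36 and Hgf at 0.83, and the remaining 3 between -0.26 and 0.25. Sex of the culture moved with the treatment label in both arms of this difference, and its part in it was not tested.

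The receptors of these ligands went both ways between genotype labels. Of 14 receptor genes, 13 passed the minimum. Without treatment 3 were higher and 3 lower by size, 23.1% each, beside 9.79% and 10.2% of all genes. With doxorubicin the numbers were the same, partly for other genes, beside 10.7% and 9.55% of all genes. These counts include Erbb4, which passed the minimum only through deficient. With doxorubicin they also include Erbb3, which passed only through wild type (2.88 CPM with doxorubicin). Both had to differ, so the counts by size support nothing about the receptors. In the additive test of genotype 3 rose and 5 fell, 23.1% and 38.5% of the 13, beside 12.6% and 10.6% of all genes. Of those that rose, Erbb4 passed the minimum only through the libraries labelled deficient, so it had to differ and adds nothing to that count. Their median log2 ratio was -0.03 without treatment, equal to that of all genes, and -0.21 with doxorubicin, where all genes had 0.02. None was called in the additive test of doxorubicin by edgeR.

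Egfr, the receptor of amphiregulin and epiregulin, was lower in deficient. It had 1320 and 1564 counts in wild type, untreated and doxorubicin, and 475 and 649 in deficient, or 41.6% of wild type in the untreated pair (37.4 to 46.3%) and 48.0% in the doxorubicin pair, and the additive difference was -1.16 (SE 0.202, adjusted p 5.60e-04 by edgeR). Erbb4, which binds epiregulin and the neuregulins, went the other way, with 3 and 3 counts in wild type and 84 and 139 in deficient. The deficient level of Erbb4 was 32.4-fold that of wild type in the untreated pair (10.7 to 160) and 53.6-fold in the doxorubicin pair (18.0 to 263). Erbb2, the partner receptor that binds no ligand itself, did not pass the test (-0.06, adjusted p 0.889 by edgeR), nor did Erbb3, with 5 to 66 counts (adjusted p 0.414 by edgeR). Markers of the oligodendrocyte lineage summed to 305 and 220 CPM in wild type and 809 and 829 CPM in deficient, and markers of neurons to 228, 203, 420 and 452 CPM; their part in the level of Erbb4 was not tested.

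For the IL-6 family, the shared signalling chain and the binding chain differed in direction. Il6st, which encodes gp130, had 2475 and 2206 counts in wild type and 2865 and 4127 in deficient and rose in the additive test (0.77, SE 0.159, adjusted p 0.00226 by edgeR). Il6ra, the chain that binds IL-6, had 336 and 449 counts in wild type and 142 and 170 in deficient and fell (-1.11, SE 0.361, adjusted p 0.0361 by edgeR). Lifr was at 8.89 and 8.78 CPM in wild type and 18.9 and 13.0 CPM in deficient, and did not pass (0.83, adjusted p 0.133 by edgeR). The receptors thus lay in no single order with Lif and Il6.

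Among receptors of IL-1 and TNF, Il1r1, the signalling receptor of IL-1, rose. It had 222 and 228 counts in wild type and 455 and 606 in deficient (1.43, SE 0.307, adjusted p 0.00296 by edgeR), while its partner Il1rap did not pass (0.35, adjusted p 0.372 by edgeR). Tnfrsf1a, the broadly made TNF receptor, had 3413 and 3912 counts in wild type and 2898 and 2735 in deficient and did not pass (-0.17, adjusted p 0.415 by edgeR). Tnfrsf1b, the TNF receptor typical of immune cells, had 1806 counts in wild type untreated and 448 to 645 in the other 3 libraries. It fell in the additive test (-1.01, SE 0.304, adjusted p 0.0243 by edgeR). Deficient stood at 28.7% of wild type without treatment and at 86.5% with doxorubicin (76.7 to 97.5%).

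Csf1r, the microglial receptor of CSF1, was lower in deficient by less than 2-fold, with 2213 and 2052 counts in wild type and 1272 and 1281 in deficient (-0.53, SE 0.155, adjusted p 0.0219 by edgeR). Csf1r is itself among the 16 microglia markers, whose median log2 ratios between genotype labels were -0.06 and -0.16. Of these markers, Csf1r and Itgam were called lower and 1 other higher. That is 12.5% lower and 6.25% higher, near or below the 10.6% and 12.6% of all genes. The part of microglia in the level of Csf1r was not tested. Met, the receptor of HGF, had 863 and 869 counts in wild type and 291 and 519 in deficient and fell (-0.94, SE 0.264, adjusted p 0.0169 by edgeR). Gfral, the receptor of GDF15 that is known from neurons of the hindbrain, had 0 counts in all 4 libraries, which allows at most 0.131 to 0.174 CPM.

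**Figure D5:**
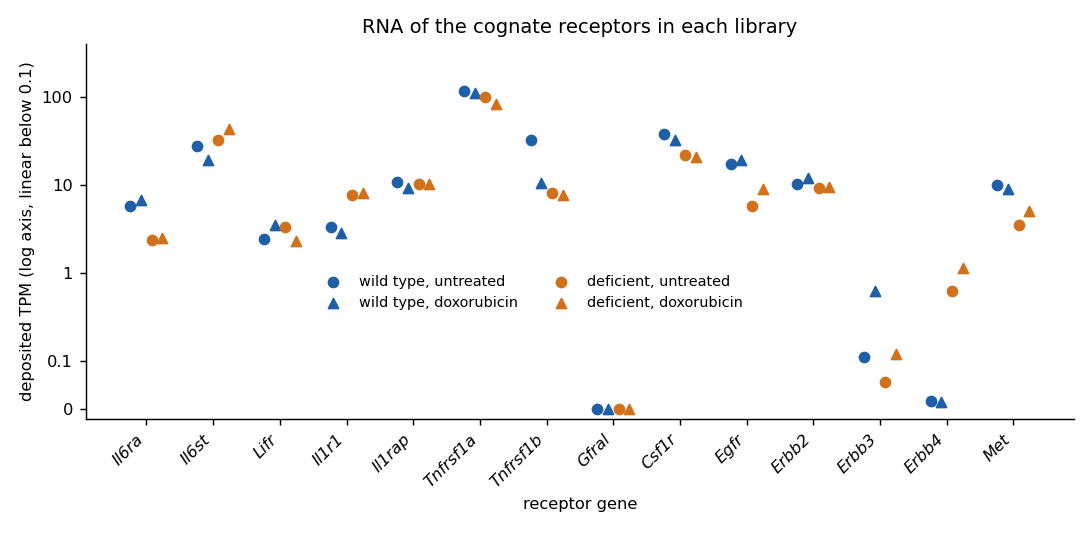
Deposited TPM (vertical log axis, linear below 0.1) of the 14 receptor genes in each library; each point is 1 library. Erbb4 and Il1r1 are higher and Egfr, Il6ra, Met and Csf1r lower in both libraries labelled deficient, Tnfrsf1b stands out in wild type untreated, and Gfral is at 0.

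Several of these ligands are made as precursors, and the genes that cut or activate them were examined as a list of 19, of which 17 passed the minimum. Without treatment 0 were higher and 4 lower by size, and with doxorubicin 1 and 4. In these comparisons 23.5% of the list was thus lower, against 10.2% and 9.55% of all genes. Of the list, St14 and Nlrp3 (Nlrp3 at 1.22 and 0.556 CPM in deficient, untreated and doxorubicin) passed the minimum only through wild type. They had to differ, so these counts by size support nothing about the list. In the additive test 1 rose and 4 fell, 5.88% and 23.5% against 12.6% and 10.6% of all genes, and the median ratios were -0.47 and -0.39, where all genes had -0.03 and 0.02. The widest difference was that of St14, which encodes matriptase, a membrane protease that can activate pro-HGF. It had 1935 and 2795 counts in wild type and 0 and 2 in deficient, at least 557-fold lower without treatment, and 0.0828% of wild type with doxorubicin (0.0100 to 0.300%). Since St14 passed the minimum through wild type alone, it had to differ, and its call adds nothing to the count. Of the genes for the HGF activator inhibitors, Spint2 fell (-1.25, adjusted p 0.0226 by edgeR) and Spint1 did not pass (-1.26, adjusted p 0.255 by edgeR). Hgfac, the circulating HGF activator, was at 0 counts in all 4 libraries, and Plau, the urokinase gene, had 24 to 95 counts and did not pass (adjusted p 0.446 by edgeR).

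Shedding of TNF, amphiregulin and epiregulin is known to depend on the protease ADAM17 and on the iRhom proteins that carry it to the cell surface. Adam17 itself did not pass (-0.50, adjusted p 0.0729 by edgeR), with 1292 and 1662 counts in wild type and 663 and 1205 in deficient. Rhbdf2, which encodes iRhom2, fell (-1.43, SE 0.410, adjusted p 0.0188 by edgeR), from 378 and 274 counts in wild type to 107 and 99 in deficient, and Adam10 rose (0.92, SE 0.178, adjusted p 0.00141 by edgeR). Furin, a proprotein convertase, also fell (-0.60, adjusted p 0.0337 by edgeR). Of the inflammasome that releases IL-1 beta, Nlrp3 was at 7.18 CPM in wild type untreated and 0.556 to 1.48 CPM in the other 3 libraries and did not pass (adjusted p 0.140 by edgeR).

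Of 13 decoys, antagonists and feedback inhibitors, 11 passed the minimum, and the additive test of genotype called 1 higher and 2 lower, 9.09% and 18.2% of the list, near the 12.6% and 10.6% of all genes. The genes that fell were Il1rn, the IL-1 receptor antagonist, and Tnfaip3, the NF-kB inhibitor A20. Il1rn had 124 and 159 counts in wild type and 24 and 13 in deficient (-2.76, SE 0.785, adjusted p 0.0184 by edgeR), and Tnfaip3 had 426 and 587 against 109 and 165 (-1.69, SE 0.344, adjusted p 0.00204 by edgeR). Socs3, the inhibitor that STAT3 induces, rose (1.05, SE 0.257, adjusted p 0.00714 by edgeR), from 424 and 687 counts in wild type to 1082 and 870 in deficient. Errfi1 and Zc3h12a did not pass (adjusted p 0.134 and 0.567 by edgeR).

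Among 33 related ligands, 23 passed the minimum, 3 rose and 5 fell in the additive test (13.0% and 21.7%, against 12.6% and 10.6% of all genes), and the median ratios of -0.09 to 0.10 lay close to those of all genes. Cntf, an IL-6 family factor of astrocytes, had 695 and 643 counts in wild type and 2437 and 2221 in deficient (2.01, SE 0.164, adjusted p 2.59e-07 by edgeR), the opposite direction to Lif. Il18, an IL-1 family cytokine, also rose (2.39, SE 0.465, adjusted p 0.00140 by edgeR). Nrg1, a neuregulin, fell (-1.90, SE 0.155, adjusted p 2.48e-07 by edgeR), as did Pdgfa (-1.55, SE 0.146, adjusted p 1.31e-06 by edgeR). Ctf1 was called higher (1.97, adjusted p 0.0285 by edgeR), with 28 counts in wild type untreated and 293 to 356 in the other 3 libraries.

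Of 18 transcriptional regulators known to act on these genes, 17 passed the minimum, 2 rose and 6 fell, 11.8% and 35.3% against 12.6% and 10.6% of all genes. Their median ratios were -0.30 without treatment and -0.49 with doxorubicin, where all genes had -0.03 and 0.02. Fosl1, the AP-1 subunit FRA1, had 940 and 1309 counts in wild type and 95 and 79 in deficient (-3.46, SE 0.296, adjusted p 4.33e-07 by edgeR). Egr1 (-1.93, SE 0.205, adjusted p 4.81e-06 by edgeR) and the NF-kB subunit gene Nfkb2 (-1.43, SE 0.322, adjusted p 0.00409 by edgeR) fell too, while Relb did not pass (-0.75, adjusted p 0.122 by edgeR). Cebpd, a C/EBP factor of the acute-phase response, rose (1.49, SE 0.134, adjusted p 7.49e-07 by edgeR). The 14 proliferation genes were all higher by size in deficient under both treatment labels, against 9.79% and 10.7% of all genes. Among them Aurkb, with 0 counts in both libraries labelled wild type, passed the minimum only through deficient and had to differ. The 14 genes summed to 147 and 181 CPM in wild type and 1264 and 1782 CPM in deficient. How far the state of the cell cycle moved with the cytokine genes was not tested.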

How the data were processed

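RNA from 4 libraries of cultured mouse astrocytes was analysed, 1 per combination of genotype and treatment label. The authors deposited an estimated count per gene, not normalized, and a TPM value per gene, per the file headers. The submitters' processing notes name DRAGEN and GRCm38, with no filters stated. Libraries were made with SMART-Seq v4, per the labels, a kit that keeps no strand information. Fractions occurred in 5810 to 6451 genes a library, and counts were rounded. GENCODE M21 symbols matched 55227 of 55487 identifiers. Counts were scaled with TMM factors of 0.981 to 1.02 (edgeR 4.0.16, R 4.3.3). Additive quasi-likelihood models of both labels were fitted to 15596 genes, with adjusted p of at most 0.05 called. On simulated counts the genotype test called 8 of 100 genes changed 2-fold and 72 of 100 changed 4-fold. It called 2 of 15396 genes without a genotype change. Alternatives were DESeq2 1.42.0, limma-voom 3.58.1, other scalings, pseudocounts and minimums, and TPM. All 10 members were named; so were every receptor, up to 5 genes of each other pathway list by absolute ratio, 4 fixed activators or inhibitors, and up to 3 markers a list. Ddit3 has 2 identifiers, and the one with counts was used. The p53 target listed as Tp53i11 had no matching symbol. The members and lists were chosen with earlier results of these data known. PCR copies were not marked by molecular identifiers, so counting intervals treat copies as molecules.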

Additional observations from a re-analysis of the deposited data

Results flagged for a closer look

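For 4 members the libraries labelled doxorubicin and untreated differed in opposite directions in the 2 genotype labels, each from 1 library a group, and the difference itself was not tested. As deficient minus wild type on the log2 scale, it was -1.13 for Gdf15, 0.83 for Hgf, -0.58 for Il6 and -0.50 for Il1a. For Gdf15 and Hgf both count ratios lay beyond counting error. For Il6 neither did, and Il1a rests on 0 to 6 counts. Treatment label and sex of the culture cannot be told apart in any of them.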

How the results depend on the processing

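No paired analysis was possible because each group holds 1 library. The number of members lower in deficient, 3 under each treatment label, was 1 with a pseudocount of 5 CPM and 1 with a minimum mean of 5 CPM, in both comparisons. Areg and Ereg do not reach that minimum. The 1 member lower with doxorubicin in deficient became 0 with that pseudocount, that minimum or TPM. The 1 member whose response was lower in deficient became 2 with a pseudocount of 0.5 CPM, and 0 with one of 5 CPM or with TPM. The other 88 member counts kept within 1.5 times, and no called ratio reversed. Among them, the number lower in deficient with doxorubicin was 4 with DESeq2 size factors, total counts or a pseudocount of 0.5 CPM. Lif reached the limit with those size factors and with total counts. Ereg passed the additive genotype test with DESeq2 (adjusted p 0.0211) and with DESeq2 size factors in edgeR (0.0157), and had adjusted p of 0.0519 to 0.201 in the remaining edgeR and limma-voom fits. On TPM, 36.8% of genes past 2-fold between genotype labels without treatment were higher, against 49.0% on CPM. The additive test of doxorubicin called 3 genes higher and 22 lower, from 0 and 0 without the genotype term to 26 and 73 with a minimum mean of 5 CPM, and no member in any fit. Leaving out a library leaves the additive model no residual degree of freedom. Depth limits Tnf, Areg, Ereg, Il6, Il1a and Il1b, where fewer than 100 counts stand behind each value.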

Other observations

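Some related ligands below the minimum level had counts mainly in the library labelled wild type with doxorubicin, and they were chosen after their values were seen. Csf2, the gene of the granulocyte and macrophage growth factor GM-CSF, had 31 counts there against 1 in wild type untreated and 0 in both libraries labelled deficient. Csf3, which encodes G-CSF, had 9 counts there and 0 in the other 3 libraries. Epgn, an EGF receptor ligand, had 24 counts there, 2 in deficient with doxorubicin and 0 in the untreated libraries. Lta, which encodes lymphotoxin alpha, had 0 counts in all 4. Btc, another EGF receptor ligand, was the reverse of Areg, with 0 counts in both libraries labelled wild type and 20 and 44 in those labelled deficient, untreated and doxorubicin.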
